A study of Mus musculus with 10 samples.

Results

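The collagen genes were followed through the first days of reprogramming of mouse embryonic fibroblasts. They were taken as all genes whose whole symbol on the array platform is Col, a number, a and a number, which gave 42 of the 18193 genes measured. Of 44 such symbols in the RefSeq gene table, Col28a1 and Col6a6 were not analysed here. Several probe sets covered 27 of the 42 genes, and the brightest by its mean on the 10 arrays was used. RNA was measured on 10 Affymetrix arrays, 2 for each of 5 groups. All cells were secondary, inducible MEFs of a 129/SvJ x C57/B6 hybrid, the uninduced control included, in which doxycycline switches on Pou5f1, Sox2, Klf4 and Myc. The control had no doxycycline and was kept for 96 h in 0.5% serum. The 4 other groups had doxycycline, labelled as 2 ug/ul, for 96 h in 15% serum, and the labels give them an average of 0, 1, 2, or 3 or more divisions. The last of these is called the most divided cohort here. The labels call the arrays of the control and the most divided cohort biological replicates, without saying whether they were separate cultures. For the cohorts of 0, 1 and 2 divisions they give no type of replicate. The spread between the 2 arrays of those cohorts may therefore be technical in part. The sources used here do not say how cells were assigned to a cohort or how old the embryos were. The comparisons ask which collagen genes had moved by 96 h and whether induced cells that had divided less already showed it.

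Values are log2 intensities after quantile normalization, and a gene was called at an adjusted p under 0.05 in limma's test over all 18193 genes. Array medians of the deposited intensities were 31.42 to 33.95, and the number of arrays limits the precision. The files hold no detection calls. Of the 42 collagen genes, 21 had a mean above that of the median gene and 21 a mean at or below it. Changes of the dimmer genes may be compressed on this scale, which was not tested. The submitters' processing notes name RMA for the 4 arrays of the control and the most divided cohort and no tool for the other 6. The cohorts of 0, 1 and 2 divisions therefore differ from the control in this respect as well as in treatment, and set and treatment cannot be told apart there. The Actb control probes were read near both ends of the transcript as a check of RNA quality. The ends differed by 0.26 on both control arrays and by 0.49 and 0.50 in the most divided cohort. Between these, the values were 0.35 and 0.29, 0.47 and 0.29, and 0.46 and 0.50 after 0, 1 and 2 divisions. For Gapdh they were 0.06 and 0.03 in the control, 0.11 to 0.26 between, and 0.27 and 0.26 in the most divided cohort. The part of these differences in the results was not tested.

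Collagens are secreted proteins of 3 chains wound into a triple helix along Gly-X-Y repeats. Fibrillar collagens, chiefly types I, III and V in fibroblasts, make the tension-bearing fibres of connective tissue. FACIT collagens sit on the surface of those fibres, type IV forms the sheet of basement membranes, type VI forms beaded filaments around cells, and the short chains of type VIII form hexagonal networks. The chains are hydroxylated and folded in the endoplasmic reticulum, trimmed of their propeptides outside the cell and cross-linked by lysyl oxidases.

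The promoters of 4 members are shown because the results turn on them: Col8a2 and Col11a1 had the largest falls, and Col1a2 and Col3a1 encode main fibril chains whose change depended on the probe set. Each run is the 250 bases before the RefSeq gene start on GRCm38.p6, on the plus strand. Capitals mark, on either strand, the TATA-box letters TATAAA, the CCAAT box, the GC box GGGCGG and the Smad-type element CAGAC. Matches may overlap within a marked stretch, also those to the same motif.
Col8a2 at chr4:126286544-126286793: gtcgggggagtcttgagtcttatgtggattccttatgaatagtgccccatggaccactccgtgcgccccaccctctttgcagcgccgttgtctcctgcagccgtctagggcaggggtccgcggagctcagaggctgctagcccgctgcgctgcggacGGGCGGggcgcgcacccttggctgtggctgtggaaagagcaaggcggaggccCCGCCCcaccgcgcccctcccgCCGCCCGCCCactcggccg
Col11a1 at chr3:114030290-114030539: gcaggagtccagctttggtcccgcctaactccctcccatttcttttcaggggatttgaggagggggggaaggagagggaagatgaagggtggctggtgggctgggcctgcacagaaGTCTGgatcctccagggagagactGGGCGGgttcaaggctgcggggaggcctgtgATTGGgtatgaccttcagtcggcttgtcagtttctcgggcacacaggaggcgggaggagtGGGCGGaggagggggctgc
Col1a2 at chr6:4505368-4505617: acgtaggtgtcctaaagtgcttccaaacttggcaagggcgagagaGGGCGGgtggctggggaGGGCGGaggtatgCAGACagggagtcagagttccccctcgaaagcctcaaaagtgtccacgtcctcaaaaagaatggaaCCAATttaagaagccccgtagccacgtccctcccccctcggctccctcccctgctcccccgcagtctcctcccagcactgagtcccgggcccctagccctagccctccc
Col3a1 at chr1:45311288-45311537: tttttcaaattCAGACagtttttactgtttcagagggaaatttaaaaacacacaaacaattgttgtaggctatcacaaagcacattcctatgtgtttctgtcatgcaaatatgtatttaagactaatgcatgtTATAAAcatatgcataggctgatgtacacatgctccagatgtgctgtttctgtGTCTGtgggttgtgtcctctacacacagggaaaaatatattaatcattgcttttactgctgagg
The Col8a2 window held 4 matches to GGGCGG and none to the other motifs. The windows of Col11a1 and Col1a2 each held 2 matches to GGGCGG, 1 to CCAAT and 1 to CAGAC. That of Col3a1 held 1 match to TATAAA and 2 to CAGAC, and none to GGGCGG. RefSeq gave 36 such windows for 33 of the 42 genes. GGGCGG was found in 21 of the 36 windows, against 32.7% of all 32851 windows of the same length. The GC content of the collagen windows had a median of 59.0%, against 52.4% over all windows. Matches to CCAAT were found in 13 collagen windows (33.8% of all windows), to CAGAC in 15 (42.2%) and to TATAAA in 5 (12.4%). Among genes called lower in the most divided cohort 10 of 13 windows held GGGCGG, and among the others 11 of 23 did. The median GC content was 62.0% in the former windows and 57.6% in the latter. A match here describes the letters of the window and no more.

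In the most divided cohort a part of the collagen genes fell, and 8 of the genes that fell were fibrillar. Against the starved control 15 of the 42 genes were called lower and 0 higher, and 27 were not called, where 11.7% of all genes were called lower and 15.9% higher. At an unadjusted p under 0.05 limma counted 17 collagen genes, and 38% of all genes. Of the 15 genes called, 11 had moved at least 2-fold. The called genes were 8 of 11 fibrillar, 2 of 3 short-chain, 3 of 9 FACIT, 1 of 6 basement membrane and 1 of 4 transmembrane members. None of the 5 beaded-filament genes was called, nor were the 2 multiplexins, Col7a1 or Col26a1. The median log2 change was -0.36 over the 42 genes, -0.98 over the fibrillar class and 0.02 over all genes, and 28 of the 42 changes were below 0 (47.2% over all genes). Among the 21 brighter collagen genes 13 were called lower, against 19.1% of all genes of that brightness, and among the 21 dimmer ones 2 were, against 4.3%. In bulk RNA, fewer cells that express a gene and less RNA per cell cannot be told apart. Doxycycline, serum and division differed together in this comparison. Without replicate 2 of the cohort 8 genes were called, and without control replicate 1, control replicate 2 or cohort replicate 1 there were 14, 10 and 11. Calls of Col1a2, Col5a1, Col5a2, Col8a2, Col11a1, Col12a1, Col16a1 and Col27a1 were made under all the alternatives tried, and the other 7 were lost without replicate 2 of the cohort.

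**Figure D1:**
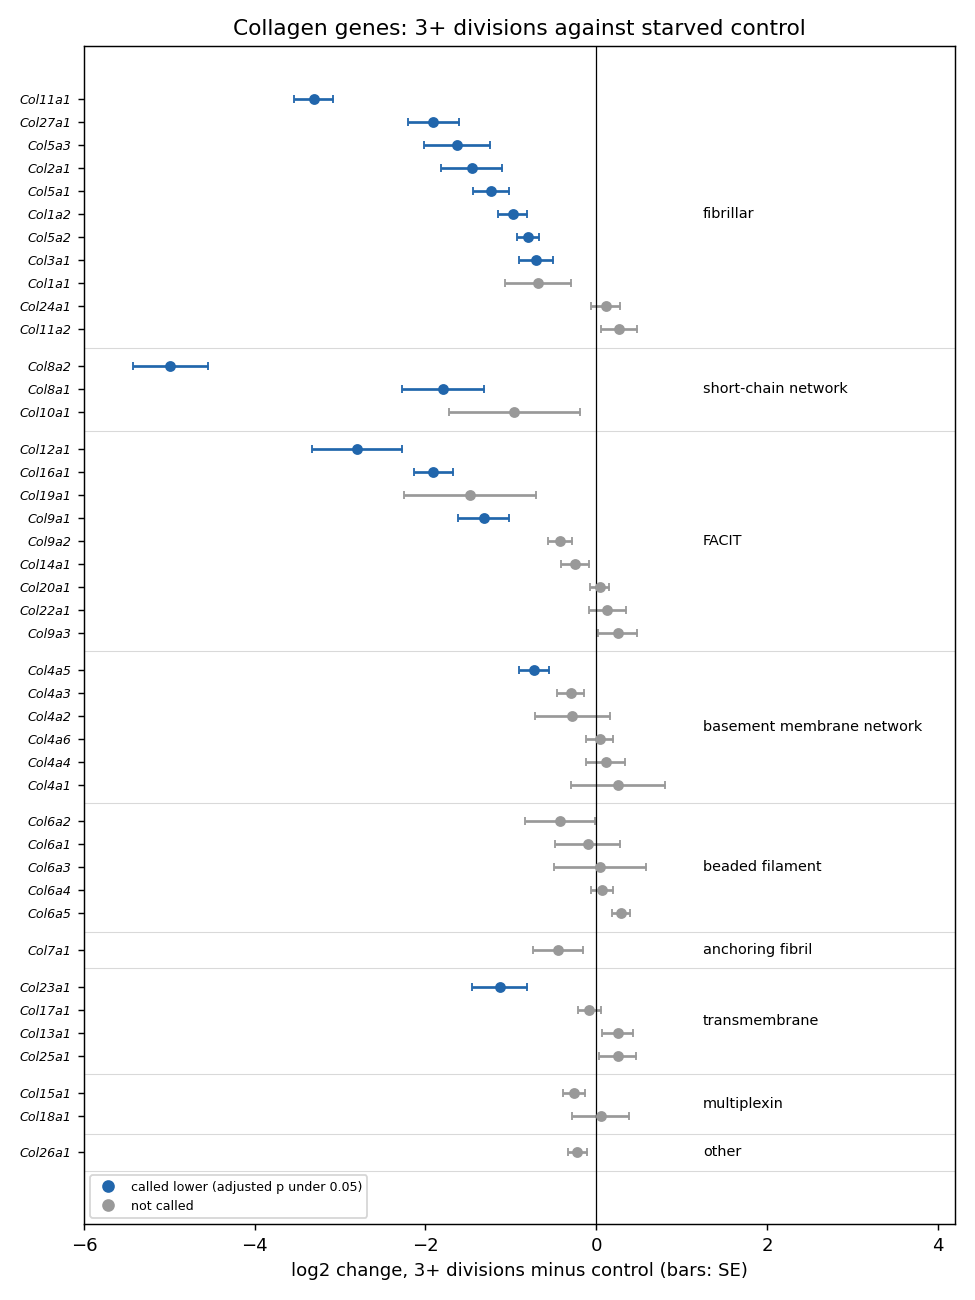
Log2 difference of the most divided cohort (3 or more divisions) from the starved control for the 42 collagen genes, by class, 1 point per gene with the standard error as bar, 2 arrays per group. Blue points, 15 in all and each left of 0, were called lower, with Col8a2 at -4.99 and Col11a1 at -3.31 farthest from 0, while the 5 beaded-filament genes lie between -0.43 and 0.29.

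Among the fibrillar genes, Col11a1, a minor chain that is built into the core of thin fibrils, had the largest change. It read 12.24 and 12.27 in the control, 11.9 and 11.98, 11.32 and 11.64, and 10.45 and 11.09 after 0, 1 and 2 divisions, and 9.17 and 8.73 in the most divided cohort. Neighbouring groups did not overlap, and every array of an induced cohort lay below both control arrays. The log2 change to the most divided cohort was -3.31 ± 0.23 (SE; adjusted p = 0.00022), or 9.89-fold. Col27a1, a fibrillar collagen of cartilage, read 9.33 and 8.98 in the control, 8.92 and 7.86, 8.23 and 8.06, and 8.12 and 8.08 after 0, 1 and 2 divisions, and 7.25 and 7.25 at the end (-1.91 ± 0.30, adjusted p = 0.0027). The cohorts of 0, 1 and 2 divisions filled the range between control and the most divided cells. Col2a1, the main fibril chain of cartilage, read 9.09 and 9.53 in the control, 9.03 and 9.25, 8.62 and 8.93, and 8.61 and 7.84 after 0, 1 and 2 divisions, and 8.33 and 7.37 after 3 or more (-1.46 ± 0.36, adjusted p = 0.0182). Its control arrays overlapped those after 0 divisions, and both groups lay above the most divided cohort.

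The type V chains, which start type I fibrils and set their width, were all called lower in the most divided cohort. Col5a1 read 12.62 and 12.84 in the control, 11.97 and 12.18, 11.93 and 12.24, and 11.51 and 12.12 after 0, 1 and 2 divisions, and 11.51 and 11.5 after 3 or more. All 8 induced arrays lay below the control, and the cohorts of 0, 1 and 2 divisions overlapped each other. The change to the most divided cohort was -1.23 ± 0.21 (adjusted p = 0.00409). Col5a2 read 14.32 and 14.39 in the control, 14.08 and 14.07, 14.06 and 14.15, and 13.75 and 13.97 after 0, 1 and 2 divisions, and 13.69 and 13.42 after 3 or more, a change of -0.80 ± 0.13 (adjusted p = 0.00334). Col5a3 read 9.06 and 8.0 in the control, 8.19 and 7.95, 8.09 and 7.37, and 7.38 and 7.94 after 0, 1 and 2 divisions, and 6.66 and 7.14 after 3 or more, below every other array. It was called there (-1.63 ± 0.39, adjusted p = 0.0166).

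Of the main fibril chains of types I and III, Col1a2 and Col3a1 were called lower in the most divided cohort and Col1a1 was not. Col1a2 read 14.36 and 14.49 in the control, 14.15 and 14.24, 14.0 and 14.2, and 13.7 and 14.15 after 0, 1 and 2 divisions, and 13.32 and 13.57 after 3 or more. It was called in the most divided cohort (-0.98 ± 0.17, adjusted p = 0.0044). Its partner in the type I helix, Col1a1, read 13.91 and 14.13 in the control, 13.16 and 13.51, 13.41 and 13.86, and 12.32 and 13.66 after 0, 1 and 2 divisions, and 13.41 and 13.27 after 3 or more. The Col1a1 arrays after 2 divisions lay 1.34 apart, more than in any other group, and the change of -0.68 ± 0.39 in the most divided cohort missed the threshold (adjusted p = 0.249). A second probe set of Col1a1, outside the test over all genes, read 13.24 and 13.28 in the control against 12.23 and 12.0, a change of -1.14 ± 0.16. Col3a1, which joins type I in soft tissue fibrils, read 14.64 and 14.51 in the control, 14.6 and 14.39, 14.64 and 14.24, and 14.54 and 14.43 after 0, 1 and 2 divisions, and 14.13 and 13.61 after 3 or more (-0.71 ± 0.20, adjusted p = 0.034). Up to 2 divisions its arrays overlapped the control. Col11a2 (4.08 and 4.16 in the control) and Col24a1 (3.22 and 3.16) were dim and were not called.

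For genes with several probe sets, the size of the change depended on the probe set. Of 13 collagen genes with more than 1 probe set above the median gene, the dimmer of these probe sets had lower changes than the brightest in 10. For Col1a2 the changes were -0.98 for the probe set used and -1.72 and -3.11 for the others. Col3a1 had -0.71 and -1.93, Col5a2 -0.80 and -2.42, and Col8a1 -1.80, -2.45 and -2.56. In 12 of the 13 all probe sets above the median gene had the same sign, and Col18a1, at 0.05 and -0.67, was the exception. Further probe sets below the median gene were not counted. Those of called genes had changes of 0.24 and -0.02 for Col12a1, -0.07 for Col5a3, -0.30 for Col9a1, and -0.19 and -0.31 for Col23a1. The probe sets used for these genes had -2.80, -1.63, -1.32 and -1.13.

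Type VIII collagen, which forms the hexagonal lattice under some endothelia and is also made by mesenchymal cells, fell in both chains. Col8a2 read 9.77 and 9.79 in the control, 8.24 and 8.31, 8.34 and 7.65, and 6.54 and 7.58 after 0, 1 and 2 divisions, and 5.36 and 4.23 after 3 or more. All induced arrays lay below both control arrays. The change to the most divided cohort was -4.99 ± 0.44 (SE; adjusted p = 0.000336), the largest of the 42 genes. Col8a1 read 12.22 and 12.9 in the control, 11.64 and 12.61, 11.13 and 12.36, and 11.16 and 11.92 after 0, 1 and 2 divisions, and 10.84 and 10.68 after 3 or more. Replicate 2 of Col8a1 was above replicate 1 in every group but the last, and the gene was called in the most divided cohort (-1.80 ± 0.48, adjusted p = 0.0265). Col10a1, of the same class and a marker of hypertrophic cartilage, read 7.37 and 10.09 in the control, 6.13 and 7.08, 6.93 and 7.62, and 7.22 and 7.31 after 0, 1 and 2 divisions, and 8.01 and 7.53 after 3 or more. Its control arrays differed by 2.72 and enclosed both arrays of the most divided cohort, and it was not called (adjusted p = 0.415).

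Of the 9 FACIT genes 3 fell in the most divided cohort. Col12a1, which binds to the surface of type I fibrils, read 11.61 and 12.34 in the control, 10.52 and 11.11, 10.21 and 11.22, and 9.53 and 11.04 after 0, 1 and 2 divisions, and 9.03 and 9.31 after 3 or more, so all induced arrays lay below the control. Its change to the most divided cohort was -2.80 ± 0.53 (SE; adjusted p = 0.00592). Col16a1, a FACIT of fibroblasts and smooth muscle, read 9.8 and 9.79 in the control, 9.45 and 8.9, 9.09 and 8.94, and 8.78 and 9.0 after 0, 1 and 2 divisions, and 8.15 and 7.62 after 3 or more (-1.91 ± 0.23, adjusted p = 0.000867). The 3 cohorts between overlapped each other and were clear of both ends. Col9a1, a chain of the cartilage FACIT type IX, read 5.37 and 6.1 in the control, 4.95 and 5.7, 4.66 and 4.78, and 4.26 and 4.68 after 0, 1 and 2 divisions, and 4.46 and 4.37 after 3 or more (-1.32 ± 0.30, adjusted p = 0.0138). Col9a1 was dim, with a mean of 4.93 against 6.5 for the median gene. Its call was lost without control replicate 2 and without either array of the most divided cohort. The partner chains Col9a2 and Col9a3 were dim as well, with changes of -0.42 and 0.25, and did not pass. Col14a1, Col20a1 and Col22a1 had changes of -0.25, 0.04 and 0.13 and did not pass. Col19a1 read 3.56 and 5.9 in the control and 3.39 and 3.1 in the most divided cohort and was not called (adjusted p = 0.204).

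**Figure D2:**
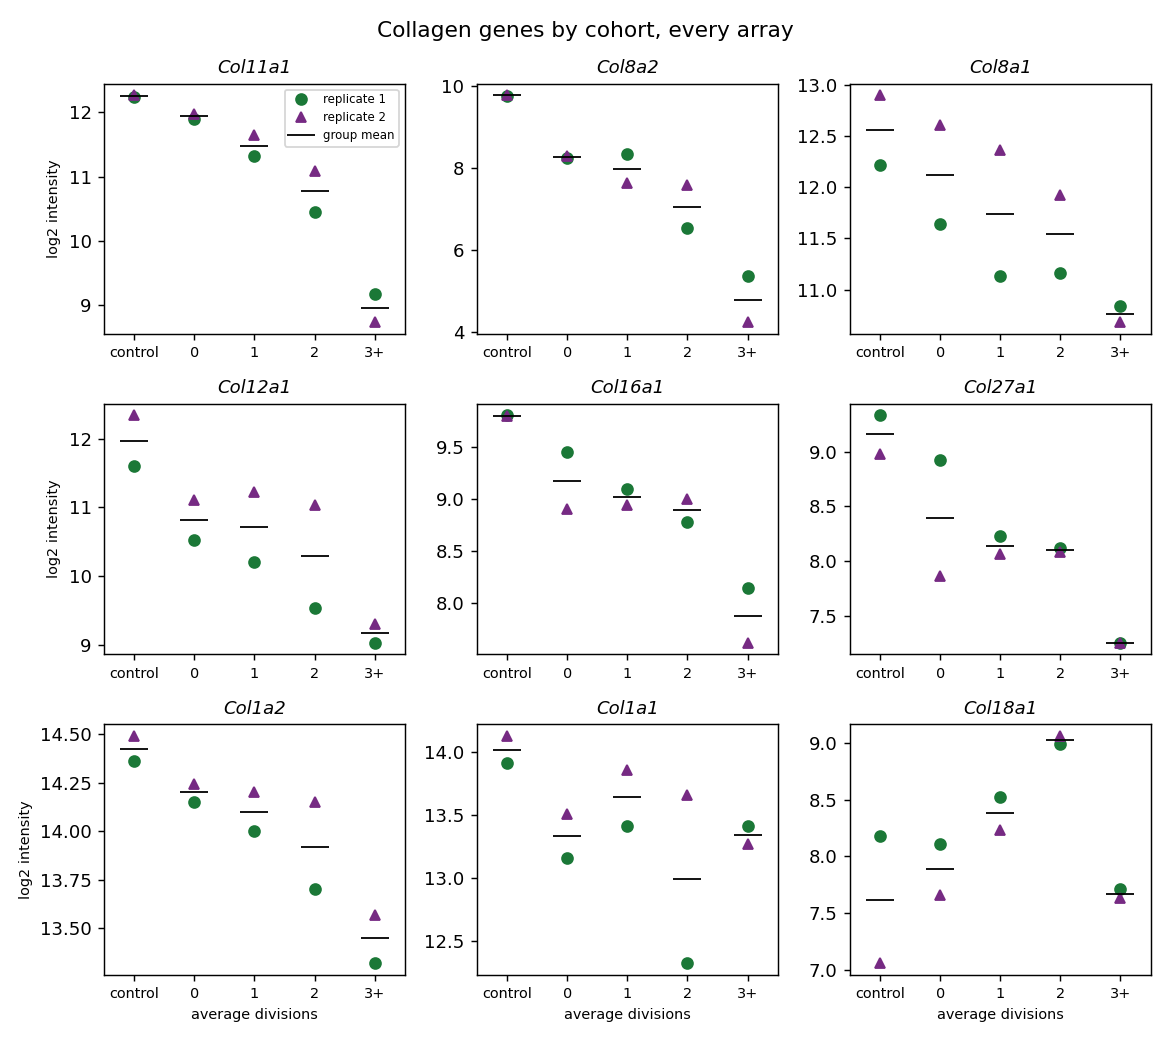
Log2 intensity of 9 collagen genes on every array, by group (control, then 0, 1, 2, and 3 or more average divisions), each panel on its own axis, with replicates as circles and triangles and the group mean as a bar. Means step down through all 5 groups for every gene shown but Col1a1 and Col18a1, and Col18a1 is highest after 2 divisions, at 8.99 and 9.06.

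Among basement membrane and beaded-filament chains, 1 of 11 was called in the most divided cohort. Col4a1 and Col4a2, which form the common type IV trimer, start head to head on opposite strands of chromosome 8 in RefSeq. Col4a1 read 11.31 and 12.07 in the control, 11.12 and 12.17, 11.08 and 12.21, and 11.17 and 12.22 after 0, 1 and 2 divisions, and 11.6 and 12.28 after 3 or more. Col4a2 read 11.29 and 11.79 in the control, 11.12 and 11.83, 10.99 and 11.97, and 11.1 and 12.09 after 0, 1 and 2 divisions, and 11.01 and 11.51 after 3 or more. Control and the most divided cohort overlapped for both, and the changes, 0.25 ± 0.55 and -0.28 ± 0.44 (SE), did not pass. With the replicate block the same changes had errors of 0.14 and 0.16 and did not pass either (adjusted p = 0.206 and 0.206). Col4a5, a chain of the kidney and lung type IV trimers, read 10.7 and 10.92 in the control, 10.65 and 10.79, 11.18 and 10.83, and 10.88 and 10.91 after 0, 1 and 2 divisions, and 10.28 and 9.89 after 3 or more. It was called there (-0.73 ± 0.18, adjusted p = 0.0171). Its chromosomal neighbour Col4a6 stayed between 6.23 and 6.82 on all arrays, Col4a3 between 4.21 and 4.83 and Col4a4 between 3.71 and 4.49, and limma called none of these 3 in any comparison.

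The type VI chains, assembled as a trimer of Col6a1, Col6a2 and Col6a3 that links cells to the fibrillar matrix, were not called. Col6a1 read 11.96 and 11.24 in the control, 11.74 and 11.07, 12.08 and 11.2, and 12.08 and 11.8 after 0, 1 and 2 divisions, and 11.77 and 11.23 after 3 or more. Col6a2 read 12.21 and 11.61 in the control, 11.94 and 11.33, 12.34 and 11.32, and 12.1 and 11.89 after 0, 1 and 2 divisions, and 11.88 and 11.08 after 3 or more. Col6a3 read 13.04 and 11.74 in the control, 12.82 and 11.8, 12.94 and 12.19, and 13.16 and 12.5 after 0, 1 and 2 divisions, and 12.83 and 12.02 after 3 or more. Their changes to the most divided cohort were -0.10 ± 0.38, -0.43 ± 0.41 and 0.04 ± 0.54 (SE), smaller than the gap between the 2 control arrays in each case. Col6a4 stayed between 4.71 and 5.13 and Col6a5 between 3.03 and 3.46.

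Replicate numbers were apart for Col4a1 and Col4a2 and for Col6a1, Col6a2 and Col6a3, in opposite directions. Replicate 2 was above replicate 1 in all 5 groups for Col4a1, by 0.68 to 1.13, and for Col4a2, by 0.49 to 0.99. For Col6a1, Col6a2 and Col6a3 the difference of replicate 2 minus replicate 1 was below 0 in all 5 groups, with means of -0.62, -0.65 and -0.91. The type IV chain Col4a6 also had it below 0 in all 5 groups, from -0.32 to -0.11. Col4a3, Col4a4, Col4a5, Col6a4 and Col6a5 had differences of both signs. In all, 6 of the 42 collagen genes had replicate 2 above in every group, against 13.6% of all genes, and 7 had it below, against 10.9%. The labels do not say what the replicate number stands for.

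**Figure D3:**
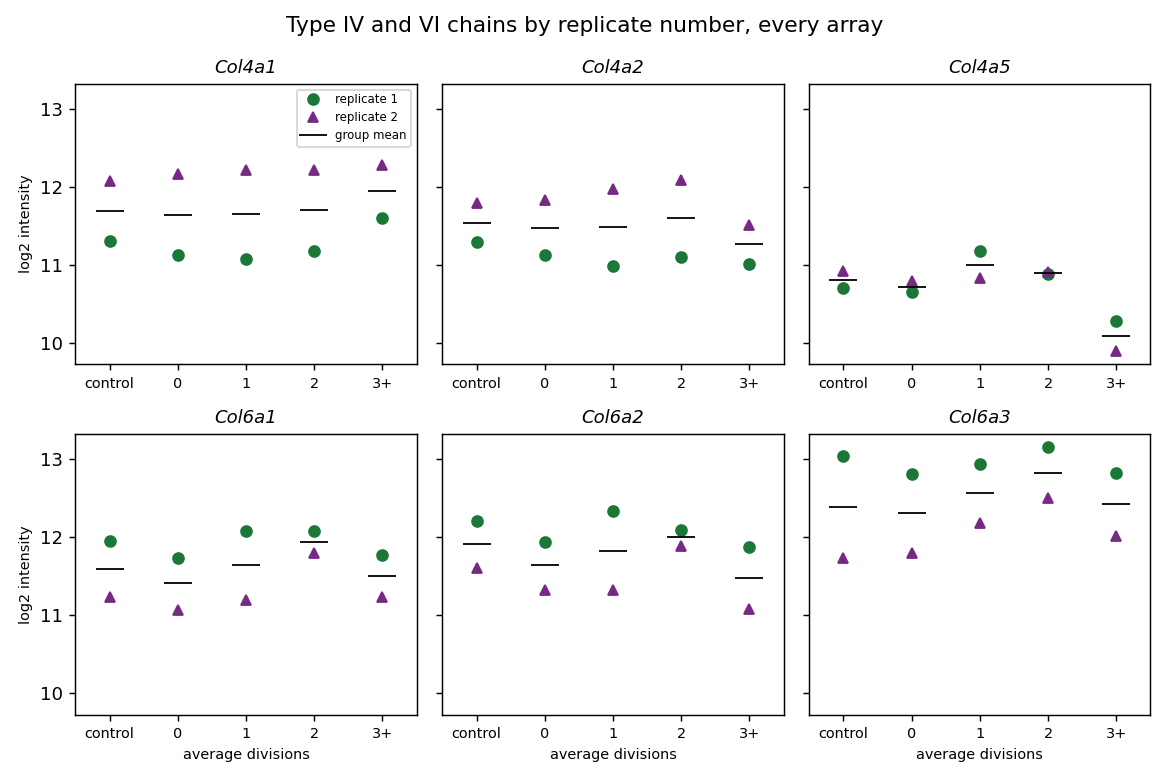
Log2 intensity of 3 type IV and 3 type VI chains on every array, by group and on a common axis, with replicate 1 as circles, replicate 2 as triangles and the group mean as a bar. Triangles lie above circles in all 5 groups for Col4a1 and Col4a2 and below them in all 5 groups for Col6a1, Col6a2 and Col6a3, while Col4a5 is lowest in the last cohort.

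The remaining classes held few changes. Col23a1, a transmembrane collagen, was called lower in the most divided cohort (-1.13 ± 0.32, SE; adjusted p = 0.0354). It read 5.67 and 4.52 in the control, 4.41 and 4.29, 4.6 and 4.33, and 4.27 and 4.38 after 0, 1 and 2 divisions, and 4.14 and 3.8 after 3 or more, so control replicate 1 stood alone. The call was lost without that array and without either array of the cohort. Col13a1 of the same class read 3.95 to 4.78 over all arrays and Col25a1 5.33 to 6.0, and neither was called. Col17a1, the hemidesmosome collagen of basal keratinocytes, stayed between 3.34 and 3.83. Col7a1, the anchoring fibril collagen under the epidermis, read 5.49 and 6.09 in the control, 5.09 and 5.56, 4.9 and 5.6, and 5.27 and 5.61 after 0, 1 and 2 divisions, and 5.27 and 5.41 after 3 or more. Neither Col17a1 nor Col7a1 was called in the fit without the block. Col26a1 read 3.76 to 4.13 and Col15a1 4.32 to 4.72.

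Col18a1, the basement membrane multiplexin whose cleaved end is endostatin, was highest after 2 divisions. It read 8.18 and 7.06 in the control, 8.11 and 7.66, 8.52 and 8.23, and 8.99 and 9.06 after 0, 1 and 2 divisions, and 7.71 and 7.63 after 3 or more. Its arrays after 2 divisions lay above all others, and those of the most divided cohort lay between the control arrays. It was the single collagen gene called higher in the 7 comparisons fitted without the replicate block, after 2 divisions against the control (1.40 ± 0.33, SE; adjusted p = 0.048). That call was lost without control replicate 2 and without either array of the cohort. Its second probe set read 8.05 and 8.4 after 2 divisions, against 7.85 and 6.73 in the control and 6.64 and 6.61 after 3 or more.

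In the less divided cohorts few collagen genes passed, although most lay below the control. After 0 divisions limma called 0 of 42 against the control, where 0.297% of all genes were called, and counted 5 at an unadjusted p under 0.05 (11.7% of all genes). The changes of 33 of the 42 were below 0 (50.9% over all genes), with a median of -0.17. After 1 division limma again called 0, where 1.24% of all genes were called, and counted 8 at an unadjusted p under 0.05 (14.7%). Of these changes 32 were below 0 (49.2% over all genes), with a median of -0.20. After 2 divisions 3 were called lower and 1 higher, against 2.06% and 4.07% of all genes, with 29 changes below 0 (49.1%) and a median of -0.23. The 3 were Col8a2 (-2.72 ± 0.44, SE; adjusted p = 0.0149), Col11a1 (-1.49 ± 0.23, adjusted p = 0.0139) and Col5a1 (-0.91 ± 0.21, adjusted p = 0.047). Without replicate 1 of that cohort 0 collagen genes were called after 2 divisions, and without its replicate 2 there were 4. Without control replicate 1 or 2 there were 3 or 1. Col8a2, Col11a1 and Col5a1 were not among these, as each lost its call without either control array. These 3 comparisons share their control arrays with each other and with the most divided cohort's. They also set arrays with RMA named in the notes against arrays without a named tool.

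Same-numbered arrays deviated together over the genes brighter than the median gene, and a block for the replicate number raised the counts after fewer divisions. After 0 divisions 1 gene was called lower, Col12a1 (-1.16; adjusted p = 0.0478 with the replicate block), where 0.89% of all genes were. After 1 division 6 were lower with the block, where 2.55% of all genes were. They were Col5a1, Col8a2, Col9a1, Col12a1, Col16a1 and Col27a1, with changes from -0.64 for Col5a1 to -1.79 for Col8a2. After 2 divisions 12 were lower and 1 higher with the block, against 6.43% and 9.11% of all genes. Col1a1 (-1.03, adjusted p = 0.0466 with the block) and Col1a2 (-0.50, adjusted p = 0.0267) were among them. In the most divided cohort the block called 17 lower, where 17.3% of all genes were, with Col7a1 (-0.45, adjusted p = 0.0428) and Col9a2 (-0.42, adjusted p = 0.0351) added.

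Among induced cells, the ends of the series of cohorts differed in fewer collagen genes. From 0 to 3 or more divisions 6 of 42 genes were called lower and 0 higher, against 5.44% and 8.46% of all genes. They were Col8a2 (-3.48 ± 0.44, SE; adjusted p = 0.00415), Col11a1 (-2.99 ± 0.23), Col16a1 (-1.29 ± 0.23), Col27a1 (-1.14 ± 0.30), Col1a2 (-0.75 ± 0.17) and Col5a2 (-0.52 ± 0.13). The changes of 23 of the 42 were below 0, against 45.6% over all genes. With the replicate block 14 were called lower, where 11.2% of all genes were. Without replicate 1 of the cohort of 0 divisions or replicate 2 of the most divided cohort, 2 were called in each case. These cohorts lie in different labelled sets, so set and division cannot be told apart. Within the 3 cohorts of like labels, limma called 0 collagen genes between 2 and 0 divisions, where 0.055% of all genes were called, and counted 6 at an unadjusted p under 0.05 (7.76%). The slope over 0, 1 and 2 divisions also called 0, where 0.0% of all genes were called, and limma counted 5 at an unadjusted p under 0.05 (8.58%). With the block the slope called Col11a1 lower (-0.58 per division, adjusted p = 0.0141) and Col18a1 higher (0.57 per division, adjusted p = 0.014), where 0.819% and 1.35% of all genes were.

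Genes that make, export and bind collagen were taken as companion lists, with 45 of 51 listed genes measured. In the most divided cohort 22 of the 45 were called lower than the control and 4 higher, against 11.7% and 15.9% of all genes. Most of the 45 were brighter than the median gene, and 19.1% of all genes of that brightness were called lower. Of 16 genes of chain modification and folding 8 fell and 0 rose, with a median change of -0.75. P4ha1, a catalytic subunit of the prolyl hydroxylase that stabilises the helix, read 11.01 and 11.06 in the control, 10.42 and 10.58, 9.75 and 10.05, and 9.32 and 9.68 after 0, 1 and 2 divisions, and 9.31 and 9.52 after 3 or more. Every induced array of P4ha1 lay below the control, and it was called after 1, 2 and 3 or more divisions (-1.14 ± 0.17, -1.53 ± 0.17 and -1.62 ± 0.17, SE). Another such subunit gene, P4ha3 (-2.56), the foldase gene Fkbp14 (-1.84) and the prolyl 3-hydroxylase family gene P3h3 (-1.70) also fell in the most divided cohort.

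Export genes fell in 4 of 6 cases in the most divided cohort, namely the transcription factor gene Creb3l1 (-1.70), the COPII coat genes Sec24d (-1.56) and Sec23a (-1.10), and Mia3, which loads procollagen into transport carriers (-0.84). Of 6 genes of propeptide processing 3 fell and 1 rose. The procollagen N-proteinase gene Adamts3 fell from 9.47 and 8.2 to 5.93 and 4.57 (-3.58 ± 0.82, SE; adjusted p = 0.0138), and Bmp1, the C-proteinase, fell by 0.75 ± 0.17. The enhancers of the C-proteinase moved apart. Pcolce fell by 0.73 ± 0.14, while Pcolce2 read 6.55 and 5.62 in the control, 8.86 and 8.15, 9.44 and 9.28, and 10.4 and 9.37 after 0, 1 and 2 divisions, and 11.0 and 10.76 after 3 or more. All induced arrays of Pcolce2 were above the control, and it rose by 4.79 ± 0.41 (27.7-fold, adjusted p = 0.000316).

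Of 4 cross-linking genes 3 fell and 1 rose. Lox, the main lysyl oxidase of fibroblasts, read 14.23 and 14.27 in the control, 13.92 and 14.02, 13.67 and 13.93, and 13.01 and 13.53 after 0, 1 and 2 divisions, and 12.64 and 12.31 after 3 or more (-1.77 ± 0.20, SE; adjusted p = 0.000695). Loxl3 (-1.45) and Loxl1 (-1.20) fell as well, while Loxl4 rose by 1.60 ± 0.39 (adjusted p = 0.017). Receptor and uptake genes fell in 4 of 9 cases. Itga1, the collagen-binding integrin chain of mesenchymal cells, fell by 2.98 ± 0.28, the uptake receptor gene Mrc2 fell by 2.04 ± 0.15, the integrin beta chain gene Itgb1 fell by 1.06 ± 0.22 and the collagen-sensing kinase gene Ddr2 fell by 0.99 ± 0.18. Of 4 genes of proline and glycine supply 2 rose, the proline-degrading Prodh by 3.82 ± 0.29 and the glycine-making Shmt2 by 1.81 ± 0.21. Among the companion genes named here, the calls of Adamts3, Bmp1, Pcolce and Itgb1 were lost without replicate 2 of the most divided cohort, and those of P4ha3, Loxl4 and Itgb1 without its replicate 1. Without control replicate 1 the calls of Adamts3, Bmp1 and Loxl4 were lost, and without control replicate 2 those of Bmp1, Itgb1 and P4ha3.

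**Figure D4:**
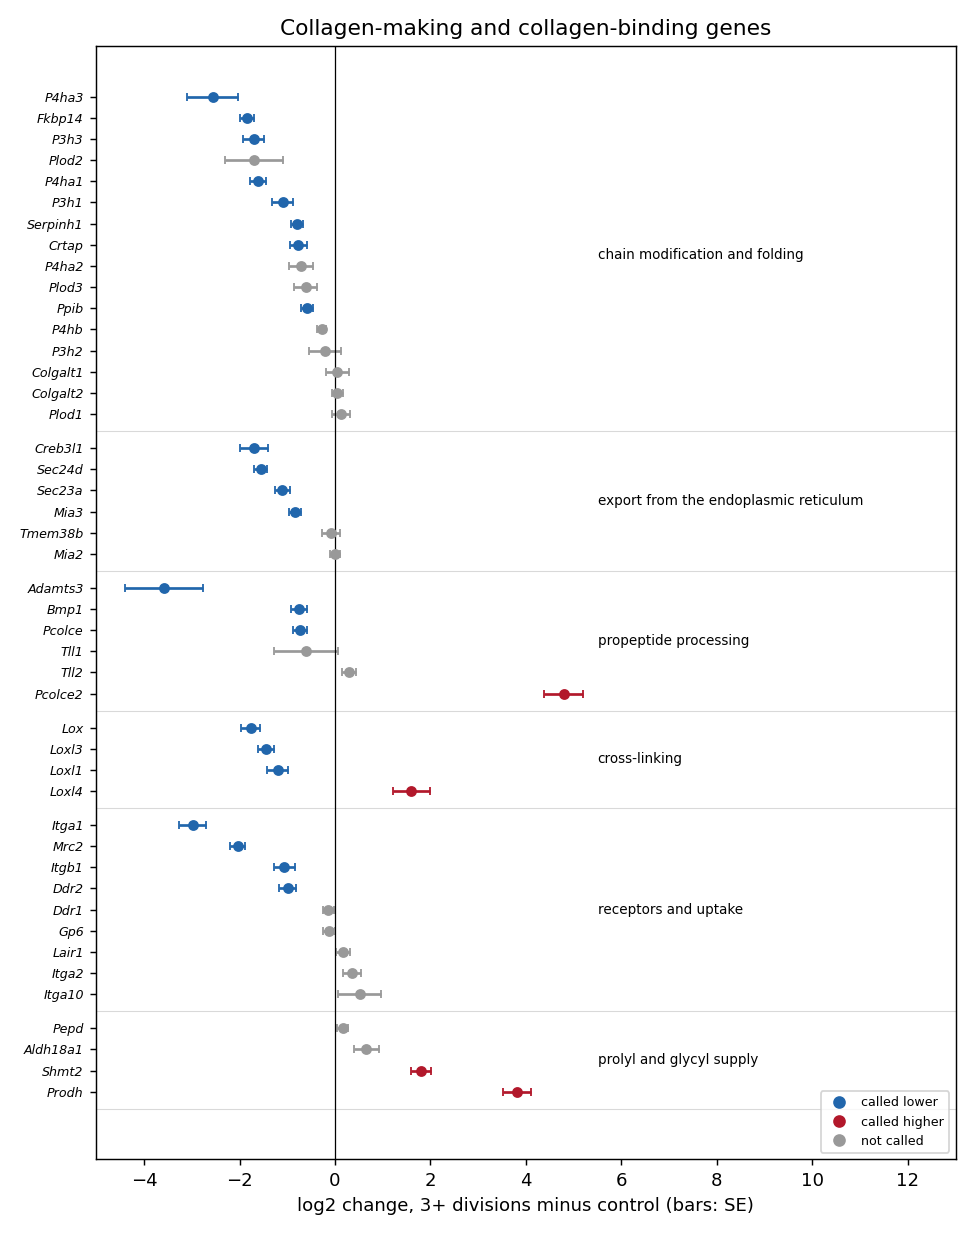
Log2 difference of the most divided cohort (3 or more divisions) from the starved control for 45 genes that make, export, process, cross-link or bind collagen, by list, 1 point per gene with the standard error as bar, 2 arrays per group. Blue points were called lower (22) and red ones higher (4), with Pcolce2 at 4.79 and Prodh at 3.82 on the right and Adamts3 at -3.58 on the left.

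Markers of cell types moved beside the collagen genes, and their part in the results was not tested. For the counts below, 11.7% of all genes were called lower and 15.9% higher in the most divided cohort than in the control. With the replicate block these shares were 17.3% and 20.4%. All 9 fibroblast markers were measured, with 6 called lower and 0 higher. Log2 of their summed intensity was 15.55 to 15.75 in the control and 14.76 to 15.03 in the most divided cohort. Vim (0.07), the brightest of them, Prrx1 (-0.06) and Lum (-2.20) did not pass, and Lum was called lower with the replicate block. For 5 tenocyte markers the sum went from 13.28 to 13.65 to 9.93 to 10.5, with 4 called lower. Among them was Tnmd, which read 10.33 and 9.92 in the control and 4.49 and 5.15 at the end. Scx (-0.29) did not pass. The sum over 8 chondrocyte markers was 9.05 to 11.14 in the control and 7.81 to 8.47 at the end, with 1 called lower, Comp (-4.00), and 4 with the replicate block. For 7 of 8 keratinocyte markers measured it was 7.51 to 7.62 against 10.9 to 11.07, with 5 called higher. Krt14 had the largest of these changes (6.04), while Krt5 (-0.02) and Trp63 (-0.59) did not pass. Smooth muscle markers summed to 14.62 to 14.98 against 12.58 to 13.8, with 0 of 5 called by limma and 4 called lower with the replicate block. The sums were 6.35 to 7.0 against 7.15 to 7.19 for 4 of 6 osteoblast markers (2 called higher), 7.19 to 7.23 against 8.48 to 8.69 for 6 endothelial markers (Tek higher by 2.44, Kdr lower with -0.55), and 7.72 to 7.78 against 8.52 to 8.75 for 6 macrophage markers (Cd68 higher by 3.54, Lyz2 lower with -1.39). The other 4 endothelial and 4 macrophage markers did not pass.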

How the data were processed

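The deposited values are linear intensity, in 1 table of 45101 probe sets by 10 arrays. RMA is named for 4 of the arrays, per the submitters' processing notes; its version, and whether the arrays were normalized together, are not given in the sources used here. Values were floored at 1 (0 values moved), taken to log2 and quantile normalized. The 34945 probe sets with 1 gene in the platform table were named, and the probe set with the highest mean stood for each of 18193 genes.

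Limma 3.58.1 in R 4.3.3 was fitted to all 10 arrays (lmFit, eBayes; 5 residual degrees of freedom), and the slope to 6 arrays. P-values were two-sided and adjusted over all genes with the Benjamini-Hochberg method at 0.05. This main fit had no term for the replicate number. Same-numbered arrays deviated together in all 10 pairs of groups (r of 0.477 to 0.872 over the 9096 genes brighter than the median gene). The dimmer genes were not part of this check. An alternative fit therefore added the replicate number as a block (4 residual degrees of freedom), on the data's ground and not the labels'. Errors and calls are from the main fit unless the block is named. Per-array values are given for members called with a change of at least 2-fold, for the brightest of each class and for chain partners, with dim members and partners by range. Up to 4 called companion genes per list were named. Members and lists were chosen with earlier results of these data known. Promoters are from RefSeq (GRCm38.p6); no genome build is given for the values.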

Additional observations from a re-analysis of the deposited data

How the results depend on the processing

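The count of collagen genes called after 3 or more divisions against the control was 10 to 17 in the other settings, and leaving out 1 array gave 8 to 14. With the replicate block the counts were 1, 6 and 13 after 0, 1 and 2 divisions against the control, 14 from 0 to 3 or more divisions and 2 for the slope. After 2 divisions, 1 gene was called with values under 16 raised to 16 and 0 with only the 4 compared arrays, and leaving out 1 array gave 0 to 4. From 0 to 3 or more divisions leaving out 1 array gave 2 to 7. Leaving out an array gave 0 calls in each of the comparisons that called 0. The block changed no other collagen count by over 1.5 times. In the most divided cohort it moved the chondrocyte markers called from 1 to 4 and the smooth muscle markers from 0 to 4. Over all genes it moved the share called lower there from 11.7% to 17.3%. No called collagen gene changed sign (0 reversed). Of the calls, 8 of 15 against the control after 3 or more divisions, 2 of 6 from 0 to 3 or more and 0 of 4 after 2 divisions were made in all settings. Causes were not tested. Without detection calls, signal over background is not known and limits the 21 dimmer genes.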
